A study of Mus musculus with 24 samples.

Results

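Naive mouse embryonic stem cells (ESCs) treated with etomoxir were compared with ESCs given the same volume of water. The 4 RNA-seq libraries of this experiment, 2 per group, are all of its members, chosen by their labels out of 24 libraries in the series. The etomoxir cells received 100 µM etomoxir at plating and were collected after 4 days, and the water cells were grown for the same time. Both groups were kept without feeder cells in a serum-free medium with 2 kinase inhibitors and the cytokine LIF (2i/LIF), which holds ESCs in the naive state. The study used etomoxir to bring naive ESCs into quiescence, and it used several ESC lines without naming the one behind these libraries. Whether the 2 libraries of a group came from separate cultures is given only as biological duplicates, so p-values measure the spread between these libraries. A second experiment of the series serves for comparison: ESCs with 64 µM of a small-molecule inhibitor of MYC (MYCi) for 3 days against ESCs with DMSO, again with 2 libraries per group.

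Long-chain fatty acids enter mitochondria as carnitine esters. Carnitine palmitoyltransferase 1 (CPT1) makes the ester at the outer membrane, the carrier SLC25A20 takes it across the inner membrane, and CPT2 returns the acyl group to coenzyme A for beta-oxidation. Etomoxir, once bound to coenzyme A, blocks CPT1 irreversibly, and at high concentration it is known to act on further mitochondrial and coenzyme A-dependent processes. Inhibition acts on the enzyme, so transcript levels report how the cells responded and not how far oxidation was blocked.

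Total RNA without ribosomal RNA was sequenced, and the deposited values are FPKM, fragment counts divided by gene length and by a library size. Depth was estimated by taking the most frequent value of FPKM times gene length as a single fragment. That gives about 30700000 and 33000000 fragments over Ensembl genes in the etomoxir libraries, against 39600000 and 39200000 in the water libraries. The estimate is rough, since fragments were counted in fractions. The summed FPKM of Ensembl genes was 162084 and 154656 in etomoxir, against 324147 and 456934 in water, and water replicate 2 stood highest. The fragments over Ensembl genes came to 46.5% and 44.8% of the library size that the deposited FPKM imply in etomoxir, against 82.7% and 113% in water, so the divisor was not a plain total of gene fragments, and how it was set is not given in the sources used here. The deposited scale and a scale on which the median gene is level thus answer separate questions. Values below are scaled FPKM, each library divided by the median ratio of its genes to their geometric mean, unless the deposited scale is named. The median log2 fold change of all genes was 0.05 on the scaled values and -0.66 on the deposited scale, a shift of 0.70. Fewer cells of a type and less RNA per cell cannot be told apart in such bulk libraries.

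Of 25421 genes tested with limma on log2(FPKM + 0.1), 7859 rose (30.9%) and 7941 fell (31.2%) at an adjusted p under 0.05, as the plot of change against level shows. On the deposited scale 3524 rose (13.9%) and 13053 fell (51.3%). Genes that rose made up 49.7% of the calls on the scaled values and 21.3% on the deposited values. Changes of at least 2-fold were called for 4261 genes that rose and 2089 that fell. With 2 libraries per group, the groups did not overlap for most of the 25421 genes, 10911 lying above water and 10303 below it. Lack of overlap thus says little about a single gene. Gene classes differed in direction. Among 10705 protein-coding genes with a mean of at least 1, 2605 rose (24.3%) and 5251 fell (49.1%), with a median log2 fold change of -0.22. Among 1206 unverified gene models (the annotation's class TEC) 613 rose and 57 fell, with a median of 0.69, and the 1170 miRNA gene rows had a median of 0.63. The 3223 processed pseudogenes lay on the side of the protein-coding genes, with 756 that rose, 1113 that fell and a median of -0.14. Small gains of weak genes run alongside the rise of the TEC and miRNA rows, and its part in them was not tested. A list's counts are best read against the share of protein-coding genes.

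**Figure D1:**
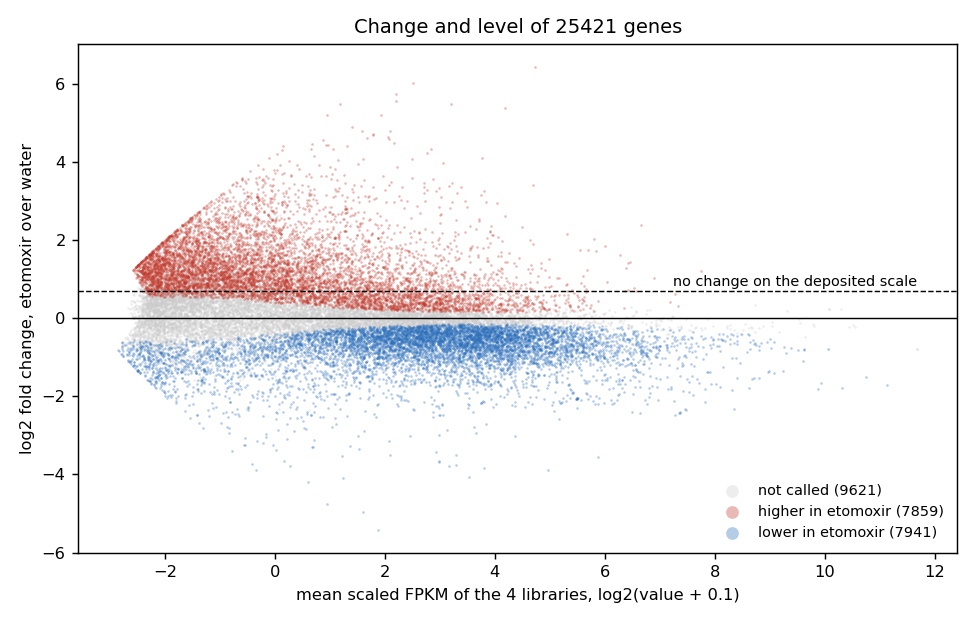
Log2 fold change of etomoxir over water (vertical axis) against the mean scaled FPKM of the 4 libraries (horizontal axis, log2 scale), 1 point per gene, coloured by call at an adjusted p under 0.05. The 7859 genes that rose include many of low level and the 7941 that fell are mostly of middle and high level. The dashed line lies at 0.70, the shift of the median between the scales. It marks no change on the deposited scale only roughly, since the shift differs between genes.

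The cells kept the markers of ESCs. The 10 fixed ESC markers were all expressed, with a summed level of 614 and 576 scaled FPKM in etomoxir, against 1039 and 1145 in water, and 10 of the 10 fell, against 6 that fell and 1 that rose after quantile normalization, which gives all libraries 1 distribution of values. Of 16 fibroblast markers, 7 passed the filter on low values, and their summed level was 3.56 and 3.44 in etomoxir, against 3.25 and 3.59 in water, with the collagens Col1a2 and Col3a1 below 0.05 FPKM in every library as deposited. Of 14 blood and endothelial markers, 6 passed, and their sum was 44.4 and 42.9 in etomoxir, against 23.2 and 24.4 in water. Most of that sum came from Cd68, a lysosomal membrane protein of macrophages, at 23.7 and 23.6 scaled FPKM in etomoxir, against 6.19 and 6.16 in water, from the angiopoietin receptor Tek at 5.22 and 5.14 scaled FPKM in etomoxir, against 1.002 and 1.02 in water, and from Pecam1, which ESCs express. The defining blood genes Ptprc, Adgre1 and Lyz2 did not pass the filter, and Adgre1 and Lyz2 were listed at 0 in both etomoxir libraries.

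Among CPT1 transcripts, the less abundant isoforms rose. Cpt1a, the main isoform of CPT1 outside muscle and brain, had 22.7 and 22.3 scaled FPKM in etomoxir, against 18.2 and 21.3 in water, and did not pass the test (log2 fold change 0.19, SE 0.09, adjusted p = 0.115). It was called higher with scaling to coding genes and after quantile normalization, but not on the deposited scale (-0.60). Cpt1b, the muscle isoform, had 4.78 and 4.47 scaled FPKM in etomoxir, against 0.684 and 0.584 in water (log2 fold change 2.69, SE 0.11, adjusted p = 0.000349, and 1.95 on the deposited scale). Cpt1c, the brain isoform, had 14.6 and 13.9 scaled FPKM in etomoxir, against 3.82 and 3.58 in water (log2 fold change 1.92, SE 0.06, adjusted p = 0.000302, deposited 1.13). The groups did not overlap for these isoforms, as for most genes. Cpt1a remained the most abundant of the 3 in both groups, since FPKM allows for length. Transcripts of the carrier and of CPT2 gained less. Slc25a20 had 15.7 and 15.2 scaled FPKM in etomoxir, against 9.76 and 10.9 in water (log2 fold change 0.58, SE 0.07, adjusted p = 0.00276). Cpt2 had 9.03 and 8.52 scaled FPKM in etomoxir, against 6.74 and 7.01 in water (log2 fold change 0.35, SE 0.06, adjusted p = 0.00708), and both turned to a lower, uncalled value on the deposited scale (-0.21 and -0.44). The call of Cpt2 was lost without etomoxir replicate 1.

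Beyond the shuttle, the balance of the fatty acid oxidation list moved with the scaling, for 14 of 39 members tested rose and 14 fell (median log2 fold change 0.01), against 3 and 20 on the deposited scale (median -0.70), 21 and 10 with scaling to coding genes, 18 and 9 after quantile normalization, 8 and 9 without etomoxir replicate 1 and 9 and 9 without etomoxir replicate 2. Acot2, a mitochondrial thioesterase that frees fatty acids from coenzyme A, rose most, with 14.5 and 16.4 scaled FPKM in etomoxir, against 0.784 and 1.005 in water (log2 fold change 3.97, SE 0.14, adjusted p = 0.000302, deposited 3.22). Acox3, a peroxisomal oxidase of branched acyl-CoA, had 6.94 and 7.15 scaled FPKM in etomoxir, against 3.38 and 3.39 in water (log2 fold change 1.04, SE 0.06, adjusted p = 0.000472, deposited 0.26, not called there). Of the central enzymes of mitochondrial beta-oxidation, chosen for their role, the medium-chain dehydrogenase Acadm had 10.6 and 10.1 scaled FPKM in etomoxir, against 14.2 and 15.4 in water (log2 fold change -0.51, adjusted p = 0.00272). The trifunctional protein subunit Hadha had 7.78 and 8.03 scaled FPKM in etomoxir, against 9.90 and 10.7 in water (log2 fold change -0.38, adjusted p = 0.00635). On the scaled values Slc25a20, Cpt1b, Cpt1c and Cpt2 were thus called above water, and Acadm and Hadha below it. Slc25a20 and Cpt2 did not keep that direction on the deposited scale. Acadm and Hadha were picked with values known, and the list as a whole went both ways. The call of Hadha was lost when either etomoxir library was left out.

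**Figure D2:**
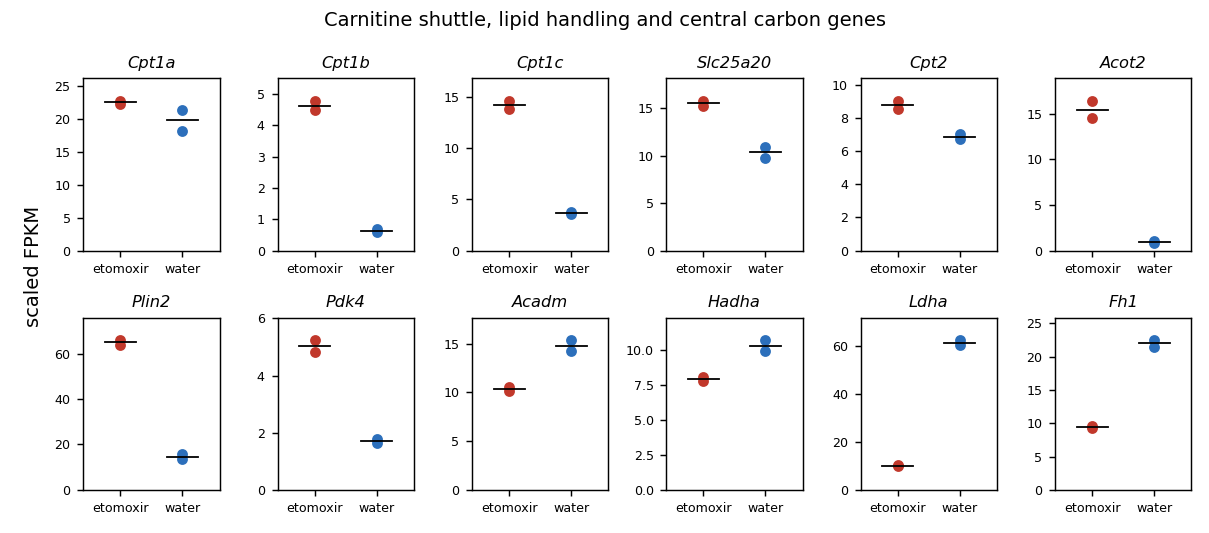
Scaled FPKM (vertical axes, each from 0) of 12 genes in the 2 etomoxir libraries (red, left) and the 2 water libraries (blue, right), with 1 point per library and a bar at the mean. Cpt1b, Cpt1c, Acot2, Plin2 and Pdk4 lie higher in etomoxir and Ldha and Fh1 lower, with no overlap, as for most genes, while Cpt1a differs little.

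Genes of lipid storage that answer to PPAR, the nuclear receptors of fatty acids, also rose in part. In the list of PPAR targets and ketone genes, 8 of 18 members tested rose and 5 fell (median log2 fold change 0.34), against 4 and 8 on the deposited scale (median -0.09). Plin2, which coats lipid droplets, had 66.0 and 63.95 scaled FPKM in etomoxir, against 13.6 and 15.8 in water (log2 fold change 2.14, SE 0.09, adjusted p = 0.000339, deposited 1.35). The fatty acid binding protein Fabp3 had 21.3 and 21.8 scaled FPKM in etomoxir, against 7.27 and 8.22 in water (log2 fold change 1.47). Pdk4, the kinase that closes pyruvate dehydrogenase, had 5.24 and 4.81 scaled FPKM in etomoxir, against 1.64 and 1.79 in water (log2 fold change 1.4998). Both rose on the deposited scale too, by 0.68 and 0.73 log2 units. Bdh1, which interconverts ketone bodies, fell, with 4.96 and 5.06 scaled FPKM in etomoxir, against 21.2 and 23.1 in water (log2 fold change -2.12, SE 0.06, adjusted p = 0.000302, deposited -2.91). The receptors Ppara and Pparg and the coactivator Ppargc1a were below the filter, at no more than 0.10 FPKM as deposited.

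Sterol and fatty acid synthesis gave no direction that holds on every scaling. For cholesterol synthesis and uptake 14 of 27 members tested rose and 5 fell (median log2 fold change 0.19), against 0 and 13 on the deposited scale (median -0.60), 19 and 3 with scaling to coding genes, 20 and 3 after quantile normalization, 4 and 3 without etomoxir replicate 1 and 4 and 3 without etomoxir replicate 2. Lanosterol synthase Lss, which closes the sterol rings, had 6.81 and 7.39 scaled FPKM in etomoxir, against 4.87 and 4.79 in water (log2 fold change 0.55, deposited -0.24). The regulator Srebf2 had 38.2 and 36.0 scaled FPKM in etomoxir, against 39.3 and 42.1 in water (log2 fold change -0.13, adjusted p = 0.138, and 0.40 after quantile normalization). The sign of both values thus depends on the scale. In the list of fatty acid synthesis, 6 of 22 members tested rose and 6 fell (median log2 fold change -0.004), against 3 and 14 on the deposited scale (median -0.79), 11 and 6 with scaling to coding genes, 14 and 2 after quantile normalization, 3 and 2 without etomoxir replicate 1 and 3 and 1 without etomoxir replicate 2. Its called members on both scales included Lpin1, a phosphatidate phosphatase, at 13.4 and 13.8 scaled FPKM in etomoxir, against 4.14 and 4.23 in water (log2 fold change 1.68, SE 0.05, adjusted p = 0.000302, deposited 0.89). The elongase Elovl7 had 8.52 and 8.62 scaled FPKM in etomoxir, against 2.79 and 2.86 in water (log2 fold change 1.57, deposited 0.79). Fasn, fatty acid synthase, had 65.0 and 62.7 scaled FPKM in etomoxir, against 71.6 and 71.8 in water (log2 fold change -0.17, adjusted p = 0.0613, and 0.49 after quantile normalization) and was not called on the scaled values. The acetyl-CoA carboxylase Acaca, from the list of fatty acid oxidation, had 2.43 and 2.28 scaled FPKM in etomoxir, against 3.50 and 3.44 in water (log2 fold change -0.54, adjusted p = 0.00406).

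Genes of glucose use and of mitochondrial energy metabolism fell together, and on each scaling tried the lists of glycolysis, the TCA cycle and the respiratory complexes held more members that fell than rose. For glycolysis and pyruvate entry 3 of 35 members tested rose and 27 fell (median log2 fold change -1.06), against 0 and 29 on the deposited scale (median -1.84) and 7 and 27 with scaling to coding genes. Lactate dehydrogenase Ldha had 10.3 and 9.88 scaled FPKM in etomoxir, against 60.2 and 62.3 in water (log2 fold change -2.59, SE 0.05, adjusted p = 0.000278, deposited -3.38), with no overlap between the groups, as for most genes. Pyruvate kinase Pkm had 23.0 and 23.1 scaled FPKM in etomoxir, against 89.7 and 93.8 in water (log2 fold change -1.99). The enolase Eno1 had 14.8 and 13.9 scaled FPKM in etomoxir, against 53.3 and 53.9 in water (log2 fold change -1.897). Pdk1, another pyruvate dehydrogenase kinase, had 1.71 and 1.85 scaled FPKM in etomoxir, against 9.39 and 9.62 in water (log2 fold change -2.35). Pdk1 and Pdk4, 2 kinases of the same complex, thus moved in opposite directions. Hk2, the first enzyme of the path, had 36.0 and 35.1 scaled FPKM in etomoxir, against 66.2 and 70.0 in water (log2 fold change -0.93). Gapdh had 14.2 and 14.0 scaled FPKM in etomoxir, against 35.6 and 38.5 in water (log2 fold change -1.39). In the pentose phosphate pathway 4 of 11 members tested rose and 5 fell (median log2 fold change -0.11), against 1 and 6 on the deposited scale (median -0.90), 5 and 5 with scaling to coding genes and 5 and 2 after quantile normalization, and the transketolase Tkt had 24.3 and 23.9 scaled FPKM in etomoxir, against 46.6 and 50.3 in water (log2 fold change -1.003).

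In the TCA cycle list 0 of 27 members tested rose and 24 fell (median log2 fold change -0.69), against 0 and 27 on the deposited scale (median -1.49) and 5 and 18 after quantile normalization. The malate-aspartate transaminase Got2 had 9.47 and 9.01 scaled FPKM in etomoxir, against 23.6 and 25.5 in water (log2 fold change -1.40, SE 0.06, adjusted p = 0.000374). Fumarase Fh1 had 9.54 and 9.30 scaled FPKM in etomoxir, against 21.5 and 22.5 in water (log2 fold change -1.21). Citrate synthase Cs, the entry step, had 50.6 and 47.7 scaled FPKM in etomoxir, against 64.6 and 71.1 in water (log2 fold change -0.46), with the call lost when either etomoxir library was left out and a value of 0.17 after quantile normalization. Of the nuclear genes for complex I, 2 of 35 members tested rose and 29 fell (median log2 fold change -0.70), against 0 and 33 on the deposited scale (median -1.47), and of those for complexes III to V with the ADP/ATP carriers, 0 of 37 members tested rose and 33 fell (median log2 fold change -0.78), against 0 and 36 on the deposited scale (median -1.57). Ndufv1, which holds the NADH site of complex I, had 11.8 and 11.6 scaled FPKM in etomoxir, against 24.7 and 26.3 in water (log2 fold change -1.11, SE 0.05, adjusted p = 0.000410). Uqcrh of complex III had 6.85 and 5.78 scaled FPKM in etomoxir, against 19.2 and 19.7 in water (log2 fold change -1.62). The ATP synthase subunit Atp5b had 71.1 and 70.0 scaled FPKM in etomoxir, against 128 and 142 in water (log2 fold change -0.94). These are nuclear transcripts only, since all 37 mitochondrial genes were listed at 0 in every library. Where a list has 0 members in a direction on the scaled or the deposited values, here or below, the raw p was looked at too. No more than 1 member was then below 0.05 in that direction in the same limma fit. Counts of 0 with a library left out or under another scaling were not looked at in this way.

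**Figure D3:**
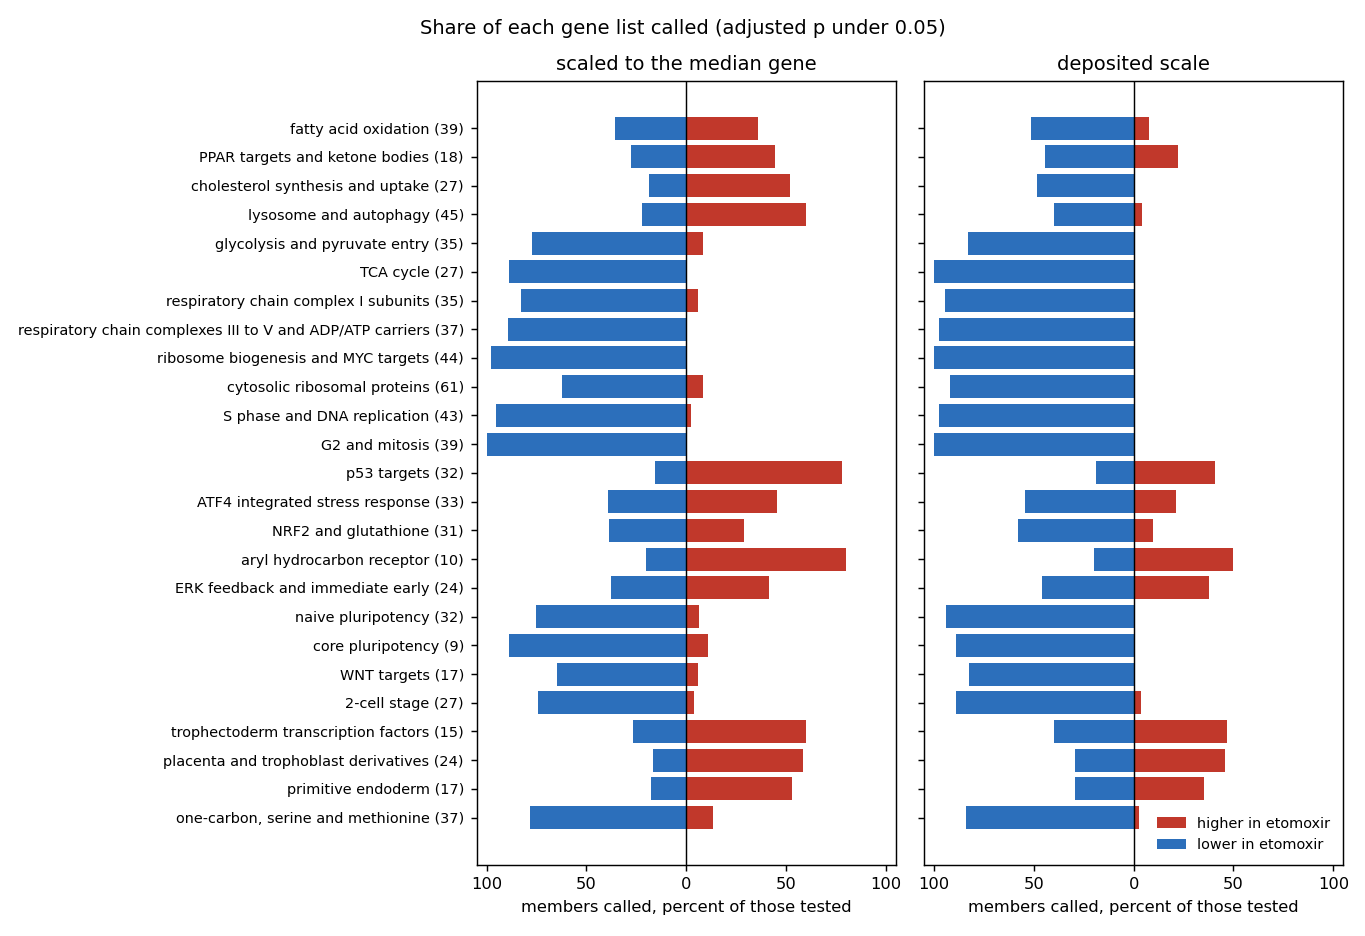
Percent of the tested members of 25 gene lists called higher (red, right of 0) or lower (blue, left of 0) in etomoxir, with the number tested in brackets, on values scaled to the median gene (left panel) and on the deposited scale (right panel). Cell cycle, ribosome and energy lists fall on both scales, p53 and aryl hydrocarbon receptor lists rise on both, and the cholesterol and lysosome lists change sides.

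The proliferation genes fell with few exceptions. In the list of G2 and mitosis 0 of 39 members tested rose and 39 fell (median log2 fold change -1.20), against 0 and 39 on the deposited scale (median -1.99), and after quantile normalization 38 of 39 still fell. The mitotic kinase Plk1 had 18.3 and 17.9 scaled FPKM in etomoxir, against 55.1 and 57.7 in water (log2 fold change -1.64, SE 0.05, adjusted p = 0.000302, deposited -2.43). Topoisomerase Top2a had 19.4 and 18.7 scaled FPKM in etomoxir, against 60.4 and 63.3 in water (log2 fold change -1.69). The cyclin Ccnb1 had 13.5 and 12.5 scaled FPKM in etomoxir, against 33.7 and 34.5 in water (log2 fold change -1.38). Cdk1, the kinase that cyclin B activates, had 8.16 and 7.55 scaled FPKM in etomoxir, against 23.8 and 24.5 in water (log2 fold change -1.61). Mki67, a marker of cycling cells, still had 12.1 and 11.9 scaled FPKM in etomoxir, against 27.8 and 26.6 in water (log2 fold change -1.17). For S phase and DNA replication 1 of 43 members tested rose and 41 fell (median log2 fold change -1.05), against 0 and 42 on the deposited scale (median -1.84). Mcm10, which opens the replicative helicase, had 6.46 and 6.15 scaled FPKM in etomoxir, against 19.6 and 20.1 in water (log2 fold change -1.64, SE 0.05, adjusted p = 0.000302). The clamp Pcna had 11.2 and 10.48 scaled FPKM in etomoxir, against 25.4 and 27.9 in water (log2 fold change -1.29). The falls of both lists lie near each other in size, close to 1 log2 unit below the median gene.

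Among regulators of G1 cyclins fell, and the common CDK inhibitors did not pass the test on the scaled values. In that list 4 of 23 members tested rose and 16 fell (median log2 fold change -0.85), against 2 and 16 on the deposited scale (median -1.64) and 7 and 14 after quantile normalization. Cyclin E1 (Ccne1) had 7.89 and 8.03 scaled FPKM in etomoxir, against 37.3 and 40.4 in water (log2 fold change -2.27, SE 0.06, adjusted p = 0.000285, deposited -3.06). Cyclin D1 (Ccnd1) had 7.15 and 6.80 scaled FPKM in etomoxir, against 28.3 and 29.3 in water (log2 fold change -2.03). Its partner Cdk6 had 2.14 and 2.18 scaled FPKM in etomoxir, against 7.47 and 7.25 in water (log2 fold change -1.72). Cdkn1a, which encodes p21, had 39.8 and 36.0 scaled FPKM in etomoxir, against 32.7 and 34.1 in water (log2 fold change 0.18, SE 0.07, adjusted p = 0.0797). Cdkn1b, which encodes p27, had 11.6 and 10.6 scaled FPKM in etomoxir, against 8.93 and 10.04 in water (log2 fold change 0.22, SE 0.08, adjusted p = 0.0714). Neither passed the test on the scaled values, and both had negative, uncalled values on the deposited scale (-0.61 and -0.56). Both were called higher with scaling to coding genes and after quantile normalization. Other brakes rose on both scales: the pocket protein Rb1 had 5.90 and 5.77 scaled FPKM in etomoxir, against 1.28 and 1.41 in water (log2 fold change 2.04, SE 0.08, adjusted p = 0.000339, deposited 1.27). Cdkn2b, which encodes p15, had 3.90 and 4.41 scaled FPKM in etomoxir, against 1.03 and 1.07 in water (log2 fold change 1.88, SE 0.10, adjusted p = 0.000459, deposited 1.13).

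MYC drives ribosome production in ESCs and works with MAX, while the MXD proteins compete with it. Myc had 2.20 and 2.27 scaled FPKM in etomoxir, against 2.57 and 2.58 in water (log2 fold change -0.20, SE 0.08, adjusted p = 0.0809) and was not called on the scaled values, and its log2 fold change on the deposited scale was -0.96. Mycn had 14.2 and 14.4 scaled FPKM in etomoxir, against 20.1 and 19.995 in water (log2 fold change -0.49, SE 0.05, adjusted p = 0.00133). Mycl, a further family member, had 1.85 and 1.73 scaled FPKM in etomoxir, against 5.64 and 5.29 in water (log2 fold change -1.56). Of the family's own list 3 of 14 members tested rose and 8 fell (median log2 fold change -0.37), against 2 and 10 on the deposited scale (median -1.13), 5 and 7 after quantile normalization, 2 and 5 without etomoxir replicate 1 and 2 and 5 without etomoxir replicate 2. The antagonists went both ways. Mxd4 had 1.03 and 1.03 scaled FPKM in etomoxir, against 0.128 and 0.103 in water (log2 fold change 2.40, SE 0.17, adjusted p = 0.000712). Mxd1, of the same kind, had 2.31 and 2.24 scaled FPKM in etomoxir, against 0.885 and 0.786 in water (log2 fold change 1.35). The same kind also includes Mxd3, with 2.22 and 2.19 scaled FPKM in etomoxir, against 4.104 and 3.76 in water (log2 fold change -0.81), and Mxi1, with 3.81 and 3.72 scaled FPKM in etomoxir, against 5.10 and 5.82 in water (log2 fold change -0.52), whose call was lost when either etomoxir library was left out. In the list of ribosome biogenesis and MYC targets 0 of 44 members tested rose and 43 fell (median log2 fold change -0.81), against 0 and 44 on the deposited scale (median -1.60) and 5 and 34 after quantile normalization. Odc1, the first enzyme of polyamine synthesis, had 16.3 and 16.6 scaled FPKM in etomoxir, against 38.0 and 40.4 in water (log2 fold change -1.25, SE 0.05, adjusted p = 0.000370). Bop1, of the large ribosomal subunit's assembly, had 14.5 and 13.9 scaled FPKM in etomoxir, against 30.1 and 31.4 in water (log2 fold change -1.11). The nucleolar protein nucleolin (Ncl) had 32.9 and 32.4 scaled FPKM in etomoxir, against 56.0 and 59.5 in water (log2 fold change -0.82). Transcripts of the ribosomal proteins themselves fell less, for 5 of 61 members tested rose and 38 fell (median log2 fold change -0.37), against 0 and 56 on the deposited scale (median -1.16), 10 and 21 with scaling to coding genes, 18 and 15 after quantile normalization, 0 and 24 without etomoxir replicate 1, 1 and 17 without etomoxir replicate 2, 2 and 39 without water replicate 1 and 2 and 27 without water replicate 2. Their short genes have many processed copies, among which fragments were divided.

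Lysosome and autophagy genes went the other way on the scaled values. In that list 27 of 45 members tested rose and 10 fell (median log2 fold change 0.34), against 2 and 18 on the deposited scale (median -0.45), 31 and 4 with scaling to coding genes, 31 and 5 after quantile normalization, 17 and 5 without etomoxir replicate 1 and 17 and 4 without etomoxir replicate 2. The lysosomal alpha-glucosidase Gaa had 47.7 and 46.1 scaled FPKM in etomoxir, against 15.6 and 17.03 in water (log2 fold change 1.52, SE 0.07, adjusted p = 0.000360, deposited 0.73). The autophagy lipid scramblase Atg9b had 4.67 and 4.25 scaled FPKM in etomoxir, against 0.637 and 0.628 in water (log2 fold change 2.64, SE 0.10, adjusted p = 0.000311, deposited 1.8998). These rose on both scales. The protease cathepsin D (Ctsd) had 131 and 126 scaled FPKM in etomoxir, against 45.2 and 49.8 in water (log2 fold change 1.43, deposited 0.64). Rragd, a GTPase that ties nutrient supply to mTORC1, had 30.2 and 29.5 scaled FPKM in etomoxir, against 11.3 and 12.1 in water (log2 fold change 1.34, deposited 0.55), and neither passed on the deposited scale. Lamp1 of the lysosomal membrane had 174 and 158 scaled FPKM in etomoxir, against 118 and 132 in water (log2 fold change 0.41, deposited -0.38) and was not called when either etomoxir library was left out, or without water replicate 1. Tfeb, a regulator of the lysosomal genes, had 2.20 and 2.17 scaled FPKM in etomoxir, against 4.86 and 5.32 in water (log2 fold change -1.18, SE 0.08, adjusted p = 0.000623, deposited -1.95).

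The E-box CACGTG is read by MYC with MAX and by TFEB and TFE3, and it is the same on both strands. It stood in the window from 250 bases before to 50 after the start site in 12 of 35 lysosome genes with a RefSeq promoter (34.3%) and in 11 of 39 ribosome biogenesis genes (28.2%), against 1218 of 12379 tested genes (9.84%) and 1942 of 27025 promoters in all (7.19%). Of the lysosome genes that rose 8 of 23 held it, and of the ribosome biogenesis genes that fell 10 of 38. The letters thus stand in promoters of the lysosome and the ribosome biogenesis lists, which moved in opposite directions on the scaled values, and a match is no evidence that a factor binds. High shares were not particular to these lists. Germline genes held the letters in 11 of 22 promoters, the MYC, MAX and MXD list in 5 of 13 and fatty acid oxidation in 0 of 32. The bases before the start site of the 2 genes of smallest p with a match in each list are shown to set them side by side, read 5′ to 3′ on the gene's strand from the RefSeq table of GRCm38.p6, with CACGTG in capitals.
Gaa (chr11:119267713-119267962, plus strand): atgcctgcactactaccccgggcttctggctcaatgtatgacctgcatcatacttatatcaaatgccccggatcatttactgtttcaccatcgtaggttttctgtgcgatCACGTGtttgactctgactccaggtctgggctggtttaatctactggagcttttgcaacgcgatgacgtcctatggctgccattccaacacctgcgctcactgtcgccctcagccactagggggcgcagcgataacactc
Ctsd (chr7:142387828-142388077, minus strand): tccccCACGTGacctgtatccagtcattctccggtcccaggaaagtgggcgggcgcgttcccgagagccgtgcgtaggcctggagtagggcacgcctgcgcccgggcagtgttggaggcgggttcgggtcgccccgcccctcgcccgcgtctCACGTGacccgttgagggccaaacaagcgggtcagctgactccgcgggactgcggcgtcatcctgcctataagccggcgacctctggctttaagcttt
Nop2 (chr6:125131633-125131882, plus strand): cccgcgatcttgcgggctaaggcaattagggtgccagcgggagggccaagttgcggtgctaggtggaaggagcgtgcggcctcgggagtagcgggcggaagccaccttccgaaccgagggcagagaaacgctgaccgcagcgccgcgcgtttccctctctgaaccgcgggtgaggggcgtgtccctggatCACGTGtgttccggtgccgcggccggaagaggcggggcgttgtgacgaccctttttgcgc
Nme1 (chr11:93968273-93968522, minus strand): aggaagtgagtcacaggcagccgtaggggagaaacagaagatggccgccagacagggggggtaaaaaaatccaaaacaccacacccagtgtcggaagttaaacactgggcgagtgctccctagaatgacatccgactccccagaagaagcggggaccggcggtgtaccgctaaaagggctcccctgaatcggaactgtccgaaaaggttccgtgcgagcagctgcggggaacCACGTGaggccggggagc
Ctsd holds the letters at 2 places and the others at 1. Nop2, a methyltransferase of ribosomal RNA, had 34.9 and 35.5 scaled FPKM in etomoxir, against 65.2 and 64.3 in water (log2 fold change -0.88, SE 0.05, adjusted p = 0.000527). The nucleoside diphosphate kinase Nme1 had 4.55 and 4.20 scaled FPKM in etomoxir, against 9.13 and 9.97 in water (log2 fold change -1.11, SE 0.07, adjusted p = 0.000667). Motifs of other factors were searched in the promoters of their lists. The CARE of ATF4 (TGATGNAAT) stood in 2 of 29 promoters of its list, against 0.517% of tested genes, and in 0 of the 15 that rose and 1 of the 9 that fell. The p53 motif, written as 2 CATG cores with 6 bases between them, stood in 1 of 24 promoters of p53 targets and in 0 of the 18 that rose, against 0.355% of tested genes. The XRE of the aryl hydrocarbon receptor (TTGCGTG) stood in 0 of 8, against 1.66%, the SRE of SREBP (TCACNCCAC) in 1 of 18, against 1.20%, and the ARE of NRF2 (TGACNNNGC) in 8 of 26, against 14.5%. In the NRF2 list 2 of the 7 promoters of genes that rose held the ARE. Its share varied between lists, with 9 of 29 for the ATF4 list and 2 of 33 for glycolysis. Both strands were searched, and such short windows miss sites that lie farther off.

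Stress lists differed in direction, and most p53 targets rose. Of p53 targets 25 of 32 members tested rose and 5 fell (median log2 fold change 1.06), against 13 and 6 on the deposited scale (median 0.27), 26 and 1 with scaling to coding genes, 28 and 1 after quantile normalization, 21 and 1 without etomoxir replicate 1, 22 and 0 without etomoxir replicate 2 and 23 and 3 without water replicate 2. The polo-like kinase Plk2 had 48.1 and 46.4 scaled FPKM in etomoxir, against 4.51 and 4.23 in water (log2 fold change 3.40, SE 0.06, adjusted p = 0.000271, deposited 2.62). The desmosomal protein Perp had 17.3 and 16.5 scaled FPKM in etomoxir, against 1.42 and 1.49 in water (log2 fold change 3.45, SE 0.06, adjusted p = 0.000272, deposited 2.68). The growth arrest gene Gadd45a had 10.7 and 10.3 scaled FPKM in etomoxir, against 1.31 and 1.37 in water (log2 fold change 2.88). Ddit4l, an inhibitor of mTORC1, had 16.7 and 16.2 scaled FPKM in etomoxir, against 2.11 and 1.95 in water (log2 fold change 2.96). Mdm2, the ligase that degrades p53, had 73.8 and 70.6 scaled FPKM in etomoxir, against 21.2 and 21.5 in water (log2 fold change 1.75, SE 0.05, adjusted p = 0.000302, deposited 0.96). Trp53, the gene of p53 itself, had 47.0 and 43.8 scaled FPKM in etomoxir, against 55.6 and 61.1 in water (log2 fold change -0.36, adjusted p = 0.0140), a call lost when either etomoxir library was left out and turned to 0.22 after quantile normalization. Cdkn1a, the best known target, did not pass on the scaled values, as given above. Death genes of the list and of the apoptosis list rose as well: Pmaip1, which encodes NOXA, had 7.504 and 7.74 scaled FPKM in etomoxir, against 0.509 and 0.777 in water (log2 fold change 3.40). Bbc3, which encodes PUMA, had 9.53 and 9.08 scaled FPKM in etomoxir, against 2.42 and 2.23 in water (log2 fold change 1.95). Hrk, another BH3-only death gene, had 2.002 and 1.88 scaled FPKM in etomoxir, against 0.173 and 0.176 in water (log2 fold change 2.89). Over the apoptosis list 8 of 20 members tested rose and 10 fell (median log2 fold change -0.24), against 4 and 12 on the deposited scale (median -0.99), 9 and 5 with scaling to coding genes, 9 and 7 after quantile normalization, 7 and 5 without etomoxir replicate 1 and 7 and 5 without etomoxir replicate 2. In the list of the mitochondrial unfolded protein response 3 of 15 members tested rose and 11 fell (median log2 fold change -0.46), against 0 and 12 on the deposited scale (median -1.25), 6 and 6 after quantile normalization and 1 and 7 without etomoxir replicate 2, and in that of endoplasmic reticulum stress 10 of 21 members tested rose and 8 fell (median log2 fold change -0.08), against 0 and 11 on the deposited scale (median -0.87), 18 and 2 after quantile normalization, 7 and 3 without etomoxir replicate 1 and 7 and 3 without etomoxir replicate 2.

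ATF4 is the effector of the integrated stress response and raises both stress factors and amino acid synthesis. Here its list was divided, since 15 of 33 members tested rose and 13 fell (median log2 fold change -0.04), against 7 and 18 on the deposited scale (median -0.83), 19 and 8 after quantile normalization, 15 and 8 without etomoxir replicate 1 and 15 and 8 without etomoxir replicate 2. Atf4 itself had 123 and 119 scaled FPKM in etomoxir, against 115 and 133 in water (log2 fold change -0.04, adjusted p = 0.766, and 0.68 after quantile normalization). The partner factor Cebpb had 14.7 and 13.8 scaled FPKM in etomoxir, against 1.23 and 1.44 in water (log2 fold change 3.33, SE 0.09, adjusted p = 0.000292, deposited 2.56). The stress-induced repressor Atf3 had 24.4 and 26.5 scaled FPKM in etomoxir, against 1.151 and 1.71 in water (log2 fold change 4.09, SE 0.19, adjusted p = 0.000387). The secreted stress factor Gdf15 had 17.01 and 16.3 scaled FPKM in etomoxir, against 2.56 and 3.15 in water (log2 fold change 2.51). The mTORC1 inhibitor Ddit4 had 28.9 and 26.7 scaled FPKM in etomoxir, against 6.84 and 7.22 in water (log2 fold change 1.97). Enzymes of serine synthesis fell: Phgdh had 6.60 and 6.36 scaled FPKM in etomoxir, against 13.4 and 15.0 in water (log2 fold change -1.12, SE 0.07, adjusted p = 0.000659). The transaminase of the same path, Psat1, had 43.3 and 41.4 scaled FPKM in etomoxir, against 84.3 and 92.4 in water (log2 fold change -1.06, SE 0.07, adjusted p = 0.000691). In the wider list of one-carbon, serine and methionine genes 5 of 37 members tested rose and 29 fell (median log2 fold change -0.68), against 1 and 31 on the deposited scale (median -1.47), 2 and 23 without etomoxir replicate 1, 2 and 22 without etomoxir replicate 2, 2 and 29 without water replicate 1 and 2 and 29 without water replicate 2. The hydrolase Ahcy, which clears S-adenosylhomocysteine, had 5.51 and 5.70 scaled FPKM in etomoxir, against 16.3 and 17.8 in water (log2 fold change -1.59). Threonine dehydrogenase Tdh had 29.5 and 28.3 scaled FPKM in etomoxir, against 77.2 and 84.8 in water (log2 fold change -1.49). Mat2a, which makes S-adenosylmethionine, had 24.6 and 24.3 scaled FPKM in etomoxir, against 32.5 and 33.6 in water (log2 fold change -0.43, SE 0.05, adjusted p = 0.00221), and Mat2a was slightly positive after quantile normalization at 0.04.

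The NRF2 list, of the oxidant response, had no direction that held on every scaling, and most aryl hydrocarbon receptor genes rose. In the NRF2 and glutathione list 9 of 31 members tested rose and 12 fell (median log2 fold change -0.03), against 3 and 18 on the deposited scale (median -0.83), 16 and 10 with scaling to coding genes, 20 and 8 after quantile normalization and 8 and 7 without etomoxir replicate 2. Sulfiredoxin Srxn1 had 38.7 and 41.1 scaled FPKM in etomoxir, against 9.88 and 9.91 in water (log2 fold change 1.9999, SE 0.05, adjusted p = 0.000285, deposited 1.21). The cystine carrier Slc7a11 had 6.03 and 6.26 scaled FPKM in etomoxir, against 0.419 and 0.624 in water (log2 fold change 3.35, SE 0.18, adjusted p = 0.000465, deposited 2.62). The NRF2 target Osgin1, a growth inhibitor induced by oxidative stress, had 1.93 and 1.94 scaled FPKM in etomoxir, against 0.0717 and 0.0989 in water (log2 fold change 3.46). The factor NRF2 (Nfe2l2) had 58.8 and 58.9 scaled FPKM in etomoxir, against 48.1 and 53.7 in water (log2 fold change 0.21, adjusted p = 0.0607, deposited -0.58). Nfe2l2 was called higher with scaling to coding genes and after quantile normalization. Heme oxygenase Hmox1 had 102 and 102 scaled FPKM in etomoxir, against 60.5 and 65.7 in water (log2 fold change 0.69, deposited -0.10). Of aryl hydrocarbon receptor genes 8 of 10 members tested rose and 2 fell (median log2 fold change 1.09), against 5 and 2 on the deposited scale (median 0.51). The receptor's classic target Cyp1a1 had 17.3 and 18.3 scaled FPKM in etomoxir, against 0.302 and 0.308 in water (log2 fold change 5.47, SE 0.08, adjusted p = 0.000271, deposited 4.76). A related cytochrome, Cyp1b1, had 2.76 and 3.02 scaled FPKM in etomoxir, against 0.0697 and 0.0323 in water (log2 fold change 4.32, SE 0.19, adjusted p = 0.000372). Its repressor Ahrr had 0.628 and 0.618 scaled FPKM in etomoxir, against 0.0375 and 0.0283 in water (log2 fold change 2.44). The receptor Ahr had 3.41 and 3.30 scaled FPKM in etomoxir, against 2.41 and 2.49 in water (log2 fold change 0.44, deposited -0.33), whose call was lost when either etomoxir library was left out.

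Genes downstream of ERK signalling moved both ways, in cells whose medium blocks MEK. In that list 10 of 24 members tested rose and 9 fell (median log2 fold change 0.27), against 9 and 11 on the deposited scale (median -0.49) and 10 and 11 after quantile normalization. The immediate early factor Jun had 10.8 and 10.4 scaled FPKM in etomoxir, against 0.547 and 0.511 in water (log2 fold change 4.08, SE 0.08, adjusted p = 0.000278, deposited 3.35). Its partner Fos had 2.74 and 2.58 scaled FPKM in etomoxir, against 0.241 and 0.161 in water (log2 fold change 3.21, SE 0.18, adjusted p = 0.000498). The antiproliferative gene Btg2 had 39.2 and 36.0 scaled FPKM in etomoxir, against 7.35 and 7.32 in water (log2 fold change 2.34). The phosphatase Dusp5 had 7.41 and 8.17 scaled FPKM in etomoxir, against 0.593 and 0.630 in water (log2 fold change 3.47). The ETS factor Etv4 had 1.47 and 1.504 scaled FPKM in etomoxir, against 17.4 and 18.2 in water (log2 fold change -3.49, SE 0.06, adjusted p = 0.000271, deposited -4.26). The feedback phosphatase Dusp6 had 2.06 and 1.82 scaled FPKM in etomoxir, against 3.50 and 3.47 in water (log2 fold change -0.82). Of the ABC transporters that export drugs, Abcb1b had 11.1 and 11.8 scaled FPKM in etomoxir, against 2.75 and 3.04 in water (log2 fold change 1.95, SE 0.08, adjusted p = 0.000330, deposited 1.17). Abcg2 had 0.997 and 1.11 scaled FPKM in etomoxir, against 2.46 and 2.56 in water (log2 fold change -1.18).

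**Figure D4:**
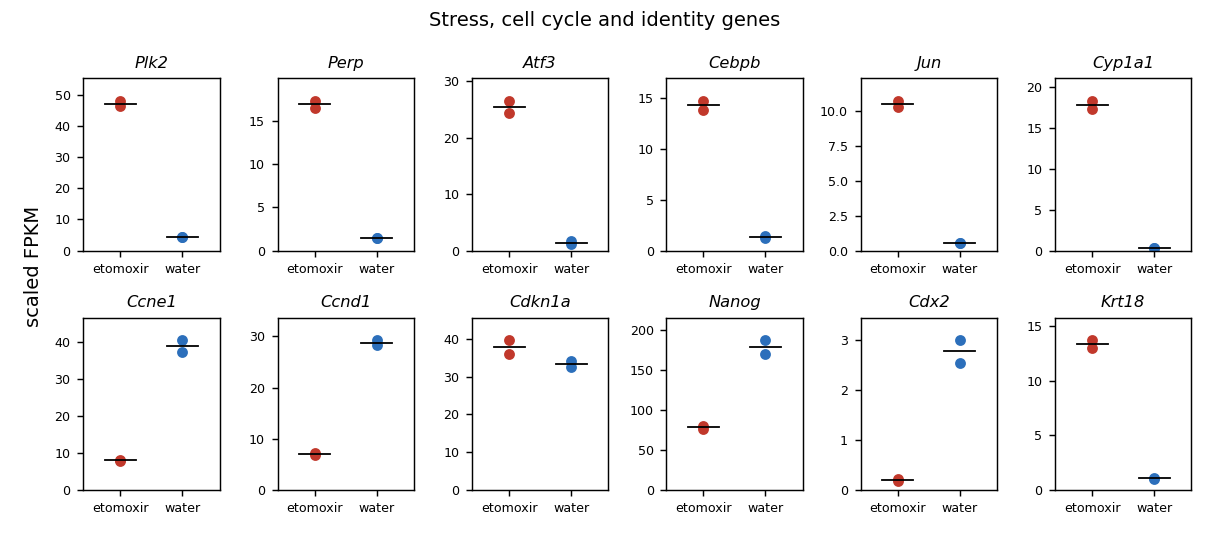
Scaled FPKM (vertical axes, each from 0) of 12 stress, cell cycle and identity genes in the 2 etomoxir libraries (red, left) and the 2 water libraries (blue, right), with 1 point per library and a bar at the mean. The stress genes Plk2, Perp, Atf3, Cebpb, Jun and Cyp1a1 and the keratin Krt18 are near 0 in water and high in etomoxir, Ccne1, Ccnd1, Nanog and Cdx2 are lower in etomoxir, and Cdkn1a is at about the same level.

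Pluripotency factors fell on the scaled and on the deposited values but remained among the well expressed genes. Of naive pluripotency genes 2 of 32 members tested rose and 24 fell (median log2 fold change -0.70), against 0 and 30 on the deposited scale (median -1.49) and 9 and 17 after quantile normalization. Pou5f1, which encodes OCT4, had 75.2 and 70.0 scaled FPKM in etomoxir, against 125 and 133 in water (log2 fold change -0.83, SE 0.08, adjusted p = 0.00139). Nanog had 80.2 and 76.8 scaled FPKM in etomoxir, against 169.8 and 188 in water (log2 fold change -1.18, SE 0.09, adjusted p = 0.000772). Sox2 had 59.4 and 57.8 scaled FPKM in etomoxir, against 88.1 and 100.1 in water (log2 fold change -0.68, SE 0.09, adjusted p = 0.00299), with no overlap between the groups, as for most genes. The call of Sox2 was lost when either etomoxir library was left out, and its log2 fold change was 0.04 after quantile normalization. Klf4, a target of LIF signalling, had 32.3 and 32.2 scaled FPKM in etomoxir, against 54.4 and 59.7 in water (log2 fold change -0.82). The orphan nuclear receptor Esrrb had 55.4 and 51.4 scaled FPKM in etomoxir, against 92.3 and 103 in water (log2 fold change -0.87). Klf2, which MEK inhibition stabilises, had 77.8 and 69.7 scaled FPKM in etomoxir, against 122 and 133 in water (log2 fold change -0.79). Tfcp2l1, another factor of the naive network, had 63.7 and 60.1 scaled FPKM in etomoxir, against 78.0 and 85.7 in water (log2 fold change -0.40), was not called when either etomoxir library was left out and was at 0.29 after quantile normalization. The homeobox gene Gbx2 fell far more than these, with 1.19 and 0.955 scaled FPKM in etomoxir, against 13.7 and 15.3 in water (log2 fold change -3.65, SE 0.12, adjusted p = 0.000302, deposited -4.40). So did the RNA-binding protein Lin28a, with 2.08 and 1.92 scaled FPKM in etomoxir, against 15.4 and 15.2 in water (log2 fold change -2.88, SE 0.06, adjusted p = 0.000278, deposited -3.65).

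WNT targets and inhibitors of NODAL fell with the pluripotency factors. The medium stimulates WNT signalling by blocking GSK3, and of WNT targets 1 of 17 members tested rose and 11 fell (median log2 fold change -1.16), against 0 and 14 on the deposited scale (median -1.95). Axin2, the feedback inhibitor, had 7.65 and 6.71 scaled FPKM in etomoxir, against 21.8 and 22.4 in water (log2 fold change -1.61, SE 0.08, adjusted p = 0.000407). Lef1, a DNA-binding partner of beta-catenin, had 0.346 and 0.410 scaled FPKM in etomoxir, against 2.45 and 2.41 in water (log2 fold change -2.40). The secreted WNT deacylase Notum had 3.99 and 4.03 scaled FPKM in etomoxir, against 15.9 and 16.0 in water (log2 fold change -1.97). The zinc-finger factor Sp5, a direct WNT target, had 9.83 and 10.01 scaled FPKM in etomoxir, against 26.2 and 26.9 in water (log2 fold change -1.41). Among BMP and NODAL genes 5 of 22 members tested rose and 11 fell (median log2 fold change -0.33), against 2 and 16 on the deposited scale (median -1.11), 2 and 9 without etomoxir replicate 1, 2 and 9 without etomoxir replicate 2, 2 and 12 without water replicate 1 and 3 and 11 without water replicate 2. The NODAL inhibitors were near 0 in etomoxir. Lefty1 had 0 and 0.0101 scaled FPKM in etomoxir, against 1.23 and 1.35 in water, the first of these listed at 0. Lefty2 had 0.0224 and 0.0543 scaled FPKM in etomoxir, against 3.37 and 3.83 in water. Bmp4 had 0.501 and 0.646 scaled FPKM in etomoxir, against 2.73 and 2.53 in water (log2 fold change -2.03). Id2, a BMP target, had 3.71 and 4.30 scaled FPKM in etomoxir, against 0.784 and 0.608 in water (log2 fold change 2.37, SE 0.15, adjusted p = 0.000623, deposited 1.63).

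Genes of the 2-cell stage embryo, which rare ESCs express, were mostly lower or too low to test. Repeat elements active at that stage were not among the rows tested. Of 40 listed, 27 passed the filter, and 1 of 27 members tested rose and 20 fell (median log2 fold change -1.08), against 1 and 24 on the deposited scale (median -1.68), 1 and 13 without etomoxir replicate 1, 1 and 13 without water replicate 1 and 1 and 12 without water replicate 2. On the scaled values 6 members were not called, and with scaling to coding genes 1 rose and 15 fell. Zscan4f, of a cluster that marks the 2-cell-like state, had 0.522 and 0.638 scaled FPKM in etomoxir, against 2.52 and 2.68 in water (log2 fold change -1.99, SE 0.14, adjusted p = 0.000678). Zscan4c had 0.366 and 0.399 scaled FPKM in etomoxir, against 1.67 and 1.85 in water (log2 fold change -1.94). Zscan4d had 0.163 and 0.320 scaled FPKM in etomoxir, against 0.603 and 0.988 in water (log2 fold change -1.40, adjusted p = 0.0220), and its call was lost when either etomoxir library was left out, and without water replicate 2. These near-identical copies share fragments, which the counting divided among them. Duxf3, which encodes the factor DUX that starts the 2-cell programme, was below the filter. The one member that rose, Ddit4l, is also in the p53 list.

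Genes of extraembryonic lineages did not move as a block. Of trophectoderm transcription factors 9 of 15 members tested rose and 4 fell (median log2 fold change 0.51), against 7 and 6 on the deposited scale (median -0.27). Gata3 had 1.20 and 1.19 scaled FPKM in etomoxir, against 0.139 and 0.112 in water (log2 fold change 2.52, SE 0.16, adjusted p = 0.000623, deposited 1.93). The T-box factor Eomes had 6.53 and 6.64 scaled FPKM in etomoxir, against 1.82 and 1.82 in water (log2 fold change 1.80, SE 0.06, adjusted p = 0.000305, deposited 1.03). The SOX factor Sox21 had 4.77 and 4.66 scaled FPKM in etomoxir, against 1.10 and 1.03 in water (log2 fold change 2.047). Tfap2c, expressed in ESCs too, had 12.3 and 11.5 scaled FPKM in etomoxir, against 7.82 and 8.84 in water (log2 fold change 0.51, deposited -0.27), and its call was lost without etomoxir replicate 1. Cdx2, the factor that specifies the trophectoderm, fell, with 0.218 and 0.170 scaled FPKM in etomoxir, against 3.01 and 2.55 in water (log2 fold change -3.29, SE 0.17, adjusted p = 0.000436, deposited -3.93). The trophoblast factors Elf5 and Hand1 did not pass the filter. Of placenta and trophoblast genes 14 of 24 members tested rose and 4 fell (median log2 fold change 0.97), against 11 and 7 on the deposited scale (median 0.35). The 3 that rose most are keratins of simple epithelia. The keratin Krt19 had 34.0 and 36.4 scaled FPKM in etomoxir, against 0.867 and 0.638 in water (log2 fold change 5.38, SE 0.14, adjusted p = 0.000285). Another keratin of simple epithelia, Krt18, had 13.0 and 13.7 scaled FPKM in etomoxir, against 1.12 and 0.986 in water (log2 fold change 3.55, SE 0.09, adjusted p = 0.000278). Its partner in the filament, Krt8, had 11.3 and 13.0 scaled FPKM in etomoxir, against 1.14 and 1.20 in water (log2 fold change 3.27). The membrane protease St14 had 25.4 and 25.1 scaled FPKM in etomoxir, against 5.59 and 5.80 in water (log2 fold change 2.13). In the epithelial and mesenchymal list 11 of 18 members tested rose and 3 fell (median log2 fold change 0.74), against 8 and 4 on the deposited scale (median 0.01), and the epithelial splicing factor Esrp1 had 1.54 and 1.51 scaled FPKM in etomoxir, against 0.0374 and 0.0579 in water (log2 fold change 3.46).

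In the primitive endoderm list 9 of 17 members tested rose and 3 fell (median log2 fold change 0.69), against 6 and 5 on the deposited scale (median 0.11), 5 and 3 without etomoxir replicate 1 and 5 and 3 without etomoxir replicate 2. Gata6, an early factor of that lineage, had 2.76 and 2.72 scaled FPKM in etomoxir, against 0.138 and 0.105 in water (log2 fold change 3.68, SE 0.15, adjusted p = 0.000345, deposited 3.08). Gata4, a later factor, had 0.843 and 0.889 scaled FPKM in etomoxir, against 0.279 and 0.160 in water (log2 fold change 1.62), with its call lost when either etomoxir library was left out. The endocytic receptor Lrp2 had 4.08 and 4.18 scaled FPKM in etomoxir, against 1.49 and 1.31 in water (log2 fold change 1.49). The nuclear receptor Hnf4a fell, with 0.575 and 0.530 scaled FPKM in etomoxir, against 1.45 and 1.66 in water (log2 fold change -1.34). The basement membrane laminin Lama1 fell too, with 9.68 and 9.27 scaled FPKM in etomoxir, against 15.3 and 15.1 in water (log2 fold change -0.68). Of primitive streak and mesoderm genes 7 of 15 members tested rose and 5 fell (median log2 fold change -0.48), against 5 and 8 on the deposited scale (median -0.85), 5 and 8 after quantile normalization, 4 and 5 without etomoxir replicate 1 and 4 and 4 without etomoxir replicate 2, so that no lineage list rose in all of its members.

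Chromatin regulators changed in both directions. PRC2 sets the repressive mark H3K27me3, and of PRC2 genes and H3K27 demethylases 5 of 16 members tested rose and 9 fell (median log2 fold change -0.19), against 0 and 11 on the deposited scale (median -0.98) and 6 and 5 after quantile normalization. Ezh2, the methyltransferase, had 10.49 and 10.2 scaled FPKM in etomoxir, against 16.1 and 17.2 in water (log2 fold change -0.68, SE 0.06, adjusted p = 0.000993). Its partner Eed, which binds the mark, had 11.9 and 12.2 scaled FPKM in etomoxir, against 15.9 and 16.9 in water (log2 fold change -0.44, SE 0.06, adjusted p = 0.00313). The core subunit Suz12 had 49.998 and 47.8 scaled FPKM in etomoxir, against 73.5 and 79.0 in water (log2 fold change -0.64, SE 0.07, adjusted p = 0.00189). Suz12 was at 0.02 after quantile normalization. The ESC-specific PRC2 partner Epop had 27.3 and 27.1 scaled FPKM in etomoxir, against 61.1 and 64.6 in water (log2 fold change -1.21). Of DNA methylation genes 7 of 18 members tested rose and 9 fell (median log2 fold change -0.18), against 0 and 11 on the deposited scale (median -0.95), 9 and 8 with scaling to coding genes, 9 and 6 after quantile normalization, 3 and 8 without etomoxir replicate 1 and 2 and 7 without etomoxir replicate 2, and the maintenance factor Uhrf1 fell furthest, with 36.4 and 35.7 scaled FPKM in etomoxir, against 114 and 116 in water (log2 fold change -1.68, SE 0.06, adjusted p = 0.000302). Its partner, the maintenance methyltransferase Dnmt1, had 25.9 and 24.8 scaled FPKM in etomoxir, against 51.6 and 52.9 in water (log2 fold change -1.04). Dnmt3l, a cofactor of the new-methylation enzymes, had 12.05 and 12.2 scaled FPKM in etomoxir, against 6.59 and 6.57 in water (log2 fold change 0.87, deposited 0.09). Uhrf1 is also in the S phase list. Kat8, which encodes the acetyltransferase MOF, had 9.57 and 10.3 scaled FPKM in etomoxir, against 7.58 and 7.97 in water (log2 fold change 0.35, SE 0.06, adjusted p = 0.00876, deposited -0.44), and the call was lost without etomoxir replicate 2.

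The 10 largest gains of well expressed protein-coding genes were read beside the MYC inhibitor, whose time and vehicle differ. Since they were picked by their etomoxir change, a larger effect with etomoxir is favoured by the choice. Gpnmb, a glycoprotein of lysosomes and melanosomes on chromosome 6 (49036546 to 49070929, GRCm38), rose most, with 52.9 and 51.7 scaled FPKM in etomoxir, against 0.594 and 0.439 in water (log2 fold change 6.42, SE 0.13, adjusted p = 0.000278, deposited 5.69). It had 13.8 and 14.1 scaled FPKM in MYCi, against 0.259 and 0.258 in DMSO, and the etomoxir effect exceeded the MYCi effect by 1.16, SE 0.16, adjusted p = 0.00612 in one limma fit of both tables. Over all genes, that difference passed for 4434 of 23717 (18.7%), and for 392 on the deposited scale, and in the same fit 26.9% of genes rose and 29.8% fell with MYCi. Cyp1a1 had the largest difference among these gains, with 1.17 and 1.26 scaled FPKM in MYCi, against 0.716 and 0.939 in DMSO, and a difference of 4.98, SE 0.18, adjusted p = 0.000432. Ptgs2, the inducible cyclooxygenase, had 8.93 and 8.80 scaled FPKM in etomoxir, against 0.0967 and 0.0825 in water (log2 fold change 5.56, SE 0.11, adjusted p = 0.000278), and a log2 fold change of 2.55 with MYCi. S100a6, a calcium-binding protein, had 5.58 and 5.75 scaled FPKM in etomoxir, against 0.142 and 0.0829 in water (log2 fold change 4.77, and 1.63 with MYCi). Genes of specialised tissues were among them. Cox6a2, the muscle isoform of a cytochrome oxidase subunit, had 11.5 and 10.6 scaled FPKM in etomoxir, against 0.130 and 0.0278 in water (log2 fold change 6.02). The sperm acrosome gene Eqtn had 9.04 and 8.87 scaled FPKM in etomoxir, against 0.124 and 0.0293 in water (log2 fold change 5.73). The axoneme gene Tekt4 had 7.86 and 8.44 scaled FPKM in etomoxir, against 0.168 and 0.236 in water (log2 fold change 4.78). The clock repressor Bhlhe41 had 5.09 and 4.98 scaled FPKM in etomoxir, against 0.0988 and 0.0539 in water (log2 fold change 4.88), and Krt19 is described above. Gm7945, at 7.10 and 7.44 scaled FPKM in etomoxir, against 0.133 and 0.0727 in water (log2 fold change 5.20), has near-identical copies on chromosome 14, so its share of their fragments is uncertain. Water values of these genes are mostly below 1 FPKM, where the added 0.1 limits the fold.

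Of the 10 largest falls, 9 are given, led by developmental regulators. The homeobox gene Nkx1-2 had 0.0895 and 0.0488 scaled FPKM in etomoxir, against 6.57 and 7.57 in water (log2 fold change -5.41, SE 0.18, adjusted p = 0.000302, deposited -5.96). Tlx2, another homeobox gene, had 0.0616 and 0.112 scaled FPKM in etomoxir, against 4.76 and 6.80 in water (log2 fold change -4.97, SE 0.24, adjusted p = 0.000410). T, which encodes the streak factor brachyury, had 0.143 and 0.187 scaled FPKM in etomoxir, against 4.37 and 4.39 in water (log2 fold change -4.08, SE 0.14, adjusted p = 0.000305). Cdx1, a caudal homeobox gene and WNT target, had 3.93 and 3.75 scaled FPKM in etomoxir, against 53.9 and 63.3 in water (log2 fold change -3.89, SE 0.09, adjusted p = 0.000278), and Lefty2 (log2 fold change -4.75) is given above. With MYCi these fell as well, Nkx1-2 by a log2 fold change of -2.48, Tlx2 -4.31, T -2.50, Cdx1 -3.20 and Lefty2 -1.86. The rest were of various kinds. The POU factor Pou2f3 had 1.69 and 1.79 scaled FPKM in etomoxir, against 25.4 and 26.8 in water (log2 fold change -3.83). The secreted glycoprotein Fstl1 had 1.16 and 1.33 scaled FPKM in etomoxir, against 17.3 and 18.8 in water (log2 fold change -3.76). The mitochondrial aldehyde dehydrogenase Aldh1b1 had 0.0848 and 0.0308 scaled FPKM in etomoxir, against 2.64 and 2.88 in water (log2 fold change -4.20). Gm10722, a gene model at the start of chromosome 9 among repeated copies, had 0.0476 and 0.0827 scaled FPKM in etomoxir, against 2.37 and 1.95 in water (log2 fold change -3.78), and its share of divided fragments is uncertain.

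**Figure D5:**
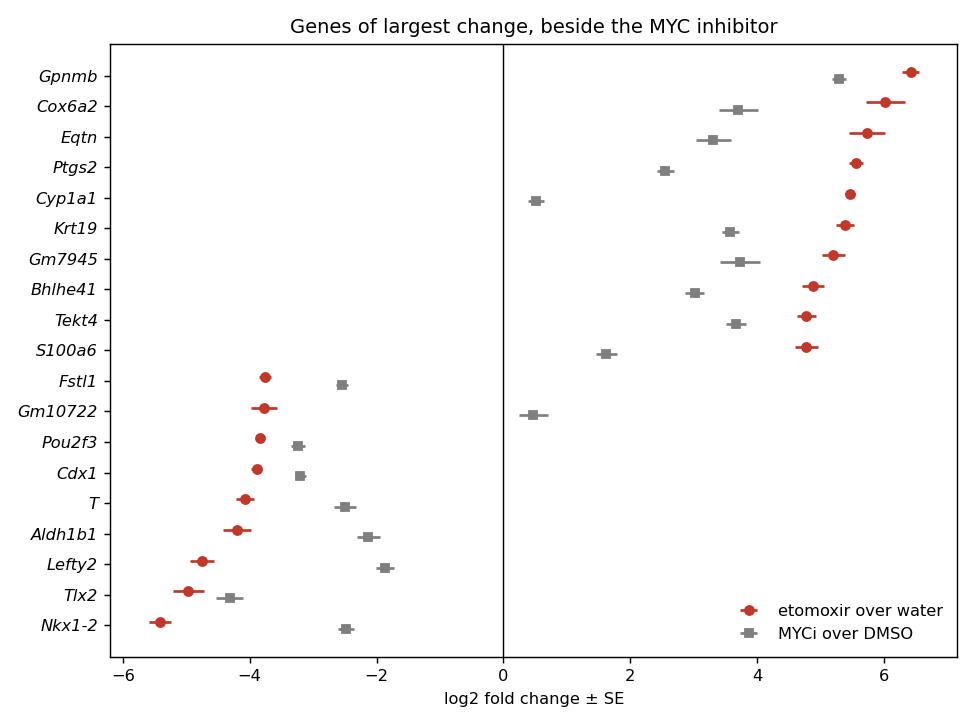
Log2 fold change (horizontal axis) with its SE for 19 genes of largest change, for etomoxir over water (red circles) and for MYCi over DMSO (grey squares), on scaled values. The genes were picked by their etomoxir change. Except for Gm10722, which is 0.47 with MYCi, both treatments lie on the same side of 0, and Cyp1a1 differs most among the gains, at 5.47 with etomoxir and 0.52 with MYCi.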

How the data were processed

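RNA of naive ESCs was depleted of ribosomal RNA and sequenced as paired reads. After trimming (Trim Galore, cutadapt) the authors used TopHat2 2.1.1 for alignment to mm10 and SAMtools 1.9 to drop duplicates. Their featureCounts run, which ignored strand, covered Ensembl, NONCODE and HOMER 4.10 repeat features, dividing fragments that map or overlap more than once, and the authors deposited FPKM made with edgeR. Genes and antisense partners cannot be told apart in such counts. Removal of duplicates can lower the strongest genes.

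The 55385 Ensembl rows were matched to GENCODE M21 (55144 found). Values were scaled by the median of ratios, and genes that reached 0.1 deposited FPKM in 2 or more of the 4 libraries were tested with limma 3.58.1 (trend, R 4.3.3) on log2(scaled FPKM + 0.1), with Benjamini-Hochberg adjustment over all genes tested, so folds of low genes are understated. On simulated data of the same 25421 genes, 41 of 50 genes lowered and 49 of 50 raised by 1 log2 unit were called, with 19 false calls among 25221. The noise was normal, with a single variance for genes of like level, and only genes with a mean of at least 1 FPKM were changed. Far fewer genes were changed there than were called in the real data, so the 19 is no estimate of the false calls among those. The etomoxir and MYCi tables were fitted together, each scaled within itself, for the difference of effects. Tables and figures were made with Python 3.11.15, pandas 2.3.3, numpy 2.4.6 and matplotlib 3.10.9.

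The members and gene lists were chosen with earlier results of these data known. Genes named are the 10 largest gains and falls among called protein-coding genes with a mean of at least 1 and no overlap between groups on both scales, 24 genes fixed for their role in the study, and per list up to 4 called members of smallest p with a mean of at least 1 plus up to 2 of central role (Nme1, Mxd3, Mxi1, Cd68, Tek, Igf2 and Ascl2 were named beyond that rule, after their values were seen, as were genes named as below the filter, and the genes of central role were picked with values known). Some genes that meet the rule are not reported here. Of symbols with 2 Ensembl IDs, such as Ddit3, the more abundant was kept. Mitochondrial genes, all listed at 0, were not tested. Promoter sequences are RefSeq's (GRCm38.p6), matched by symbol for 910 of 1154 tested list members. The authors' own fold changes were not used. Alternatives were the scaling, pseudocount, filter, gene class, trend, replicate block and leaving out each library.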

Additional observations from a re-analysis of the deposited data

Results flagged for a closer look

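Among the 19 genes of largest change that are given, the response to etomoxir differed from that to MYCi for 17 by the interaction term of limma, with p-values adjusted over 23717 genes. These genes were picked for the size of their etomoxir change in the same libraries, which favours a larger effect with etomoxir. Their differences are thus no independent evidence that etomoxir acts more strongly. The doses, times and vehicles of both treatments differ, and the tables were normalized separately, so each value is a difference between log2 fold changes made within a table, etomoxir minus MYCi.

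Gains with etomoxir exceeded those with MYCi by 4.98 for Cyp1a1, 3.17 for S100a6, 3.03 for Ptgs2, 2.44 for Eqtn, 2.34 for Cox6a2, 1.89 for Bhlhe41, 1.84 for Krt19, 1.16 for Gpnmb and 1.14 for Tekt4. Among these, MYCi alone raised Cyp1a1 by 0.52 and Gpnmb by 5.29 log2 units. Gm7945 differed by 1.49 (limma adjusted p = 0.0612) and Tlx2 by -0.63 (limma adjusted p = 0.203), which did not pass.

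Falls went further with etomoxir by a difference of -4.23 for Gm10722, -2.91 for Nkx1-2, -2.87 for Lefty2, -2.05 for Aldh1b1, -1.56 for T, -1.17 for Fstl1, -0.66 for Cdx1 and -0.56 for Pou2f3. Gm10722 was not called with MYCi (log2 fold change 0.47), whereas the others fell with MYCi too. On the deposited scale 392 differences passed over all genes, in place of 4434, and 1759 did with the replicate number as a block.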

How the results depend on the processing

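On the deposited scale 3524 genes rose and 13053 fell, and 392 differed between etomoxir and MYCi. Leaving out 1 library gave 4241 to 7244 genes that rose, 4792 to 7562 that fell and 2353 to 3959 that differed, with the lone library of an arm assumed to vary like the others, and the lowest counts came without an etomoxir library (without replicate 1, 4397 rose). With the replicate block 7194 rose, 7183 fell and 1759 differed. Deviations of etomoxir and water replicate 1 from their group means had a correlation of -0.09 over genes. With 2 pairs this cannot settle whether the replicate numbers pair the libraries. Under the block 254 of 256 named genes kept direction and call. Scaling to well expressed coding genes gave 10149 that rose and 5935 that fell. The other alternatives (quantile normalization, pseudocounts of 0.01 and 1, no filter, a filter at FPKM 1, coding genes alone, no trend) gave counts within 1.5 times those reported. Scaling to the ERCC spike-ins was not run here. On the deposited scale limma pooled the spread over all genes completely.

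Of 256 named genes, 8 were not called. Among these, Cpt1a, Cdkn1a, Cdkn1b and Nfe2l2 were called higher with scaling to coding genes and after quantile normalization. Srebf2, Fasn and Atf4 were called higher after quantile normalization, and Myc was called lower there. Direction and call held for 219 on the deposited scale and for 233 after quantile normalization. Log2 fold changes of opposite sign were, on the deposited scale, Cpt1a at -0.60, Cpt2 at -0.44, Slc25a20 at -0.21, Cdkn1a at -0.61, Cdkn1b at -0.56, Kat8 at -0.44, Lss at -0.24, Elovl1 at -0.16, Abcc4 at -0.19, Dazl at -0.14, Igf2r at -0.052, Lamp1 at -0.38, Nfe2l2 at -0.58, Hmox1 at -0.10, Ahr at -0.33 and Tfap2c at -0.27. After quantile normalization they were Sox2 at 0.035, Suz12 at 0.023, Mat2a at 0.038, Ifitm3 at 0.20, Srebf2 at 0.40, Fasn at 0.49, Cs at 0.17, Trp53 at 0.22, Atf4 at 0.68 and Tfcp2l1 at 0.29. Ifitm3, Cs, Trp53 and Tfcp2l1 were called lower on the scaled values but higher after quantile normalization. Scaled to coding genes, they were Myc at 0.026, Srebf2 at 0.10, Fasn at 0.064 and Atf4 at 0.19, and with the filter at FPKM 1 Myc at 0.021, Srebf2 at 0.093, Fasn at 0.059 and Atf4 at 0.19. With coding genes alone Atf4 was at 0.073, and leaving out 1 library put Atf4 between -0.16 and 0.048. The cause of these changes was not tested beyond the scaling itself. Without etomoxir replicate 1, 13 named genes lost their call, as many as without etomoxir replicate 2. Low FPKM limit the folds of genes near 0.1.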

Other observations

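Further gene groups were measured, whose values are given without explanation. Of imprinted genes 16 of 31 members tested rose and 9 fell (median log2 fold change 0.21), against 4 and 13 on the deposited scale (median -0.57), 19 and 5 with scaling to coding genes, 9 and 4 without etomoxir replicate 1 and 9 and 4 without etomoxir replicate 2. The growth factor Igf2 had 2.09 and 2.50 scaled FPKM in etomoxir, against 0.533 and 0.600 in water (log2 fold change 1.84, SE 0.14, adjusted p = 0.000878, deposited 1.12), and the placental regulator Ascl2 3.92 and 4.90 scaled FPKM in etomoxir, against 1.25 and 1.31 in water (log2 fold change 1.69, SE 0.13, adjusted p = 0.000850, deposited 0.93). The growth suppressor Phlda2 fell, with 2.14 and 2.24 scaled FPKM in etomoxir, against 5.02 and 5.07 in water (log2 fold change -1.17, SE 0.07, adjusted p = 0.000511). Igf2r, the receptor that clears IGF2, had 31.3 and 30.7 scaled FPKM in etomoxir, against 18.4 and 18.7 in water (log2 fold change 0.74) and a deposited log2 fold change of -0.05.

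Of germline genes 12 of 24 members tested rose and 3 fell (median log2 fold change 0.39), against 5 and 7 on the deposited scale (median -0.35) and 7 and 2 without etomoxir replicate 2. The meiotic chromosome gene Hormad1 had 11.5 and 11.8 scaled FPKM in etomoxir, against 4.01 and 3.61 in water (log2 fold change 1.59, SE 0.07, adjusted p = 0.000382, deposited 0.81), whereas Dazl, an RNA-binding protein of germ cells, had 9.47 and 9.35 scaled FPKM in etomoxir, against 5.94 and 6.06 in water (log2 fold change 0.64) and turned to -0.14 on the deposited scale.

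Genes of hypoxia went both ways, for 8 of 18 members tested rose and 8 fell (median log2 fold change -0.11), against 3 and 9 on the deposited scale (median -0.68). Ndrg1, a stress-induced growth suppressor, had 19.5 and 19.7 scaled FPKM in etomoxir, against 2.67 and 2.60 in water (log2 fold change 2.85, SE 0.05, adjusted p = 0.000272, deposited 2.07). The mitophagy receptor Bnip3, of the same list, had 2.64 and 2.62 scaled FPKM in etomoxir, against 8.29 and 9.17 in water (log2 fold change -1.69, SE 0.07, adjusted p = 0.000360). In the heat shock list 1 of 15 members tested rose and 10 fell (median log2 fold change -0.38), against 0 and 13 on the deposited scale (median -1.17), 5 and 5 after quantile normalization, 1 and 4 without etomoxir replicate 1 and 1 and 4 without etomoxir replicate 2. The mitochondrial chaperone Hspd1 had 34.9 and 34.4 scaled FPKM in etomoxir, against 66.6 and 73.2 in water (log2 fold change -1.01, SE 0.07, adjusted p = 0.000675), while the small heat shock protein Hspb8 had 86.0 and 85.5 scaled FPKM in etomoxir, against 43.1 and 46.8 in water (log2 fold change 0.93, SE 0.07, adjusted p = 0.000766) and 0.14 on the deposited scale, where it was not called.

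In the list of H3K9 methylation 1 of 20 members tested rose and 14 fell (median log2 fold change -0.46), against 0 and 19 on the deposited scale (median -1.26), 5 and 12 with scaling to coding genes and 6 and 8 after quantile normalization. The heterochromatin proteins Cbx3 and Cbx1 fell most. Cbx3 had 6.59 and 6.71 scaled FPKM in etomoxir, against 18.2 and 19.4 in water (log2 fold change -1.48, SE 0.06, adjusted p = 0.000311) and Cbx1 11.2 and 11.2 scaled FPKM in etomoxir, against 26.4 and 28.0 in water (log2 fold change -1.27, SE 0.05, adjusted p = 0.000348). Of neural genes 5 of 13 members tested rose and 6 fell (median log2 fold change 0.05), against 3 and 6 on the deposited scale (median -0.53) and 5 and 5 with scaling to coding genes. Neurod1, a neurogenic factor, had 4.08 and 3.48 scaled FPKM in etomoxir, against 0.269 and 0.311 in water (log2 fold change 3.31, SE 0.14, adjusted p = 0.000360, deposited 2.62), and the neuronal tubulin Tubb3 had 6.74 and 6.11 scaled FPKM in etomoxir, against 17.2 and 18.9 in water (log2 fold change -1.47, SE 0.08, adjusted p = 0.000461).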
